A study of Mus musculus with 33 samples.

Results

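Livers of mice given rapamycin and then refed for 6 h were compared with livers of mice given vehicle and refed for the same time. The comparison holds 6 of the 33 arrays of the series, 3 per group, chosen by the treatment and refeeding time in the sample labels. Mice of both groups were adult males, fasted for 22 h before the injection and given free access to food 2 h after it. Mice of the rapamycin group received 10 mg/kg of the drug in saline with ethanol, and mice of the vehicle group received that carrier alone. The remaining 27 arrays come from other fasted, refed or nonfasted livers and enter through the shared estimate of the spread. Each sample was hybridised to 1 oligonucleotide array carrying 12488 probe sets, and the deposited intensity of a probe set is the authors' scaled average difference, so it can be negative. The labels do not name single animals, so the p-values measure the spread between these samples. The number of arrays limits the precision.

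Rapamycin binds the protein FKBP12 and together they inhibit mTORC1, the kinase complex through which amino acids and insulin drive cell growth. In the fed liver mTORC1 promotes protein synthesis, lipid synthesis and ribosome production, and it holds back autophagy, the breakdown of cell contents in lysosomes. Transcripts that begin with a terminal oligopyrimidine (TOP) tract, which encode ribosomal proteins and translation factors, depend most on mTORC1 for their translation. The liver also makes most plasma proteins, and the endoplasmic reticulum (ER) folds them with chaperones whose genes respond to the load of unfolded protein.

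The starts of 2 genes described first are shown because both are named among TOP transcripts, with the first of the longest pyrimidine runs of the window in capitals. Each window runs from 15 bases before to 25 bases from the RefSeq start (GRCm38.p6), 5′ to 3′ on the plus strand. They lie at chr15:102073758-102073797 and chr1:161035151-161035190.
Eif4b: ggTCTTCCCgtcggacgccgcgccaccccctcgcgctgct
Gas5: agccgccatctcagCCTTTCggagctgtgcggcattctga
The run of Gas5 begins 1 base before this annotated start and has 6 bases. A second annotated start of Gas5, at chr1:161034601, is not shown, and the longest run of its window has only 3 bases. The run of Eif4b begins 13 bases before its annotated start, outside the 5 bases on either side that were searched for a tract. The window of Eif4b holds another run of the same length after the start. With a tract taken as C followed by at least 4 pyrimidines (5 bases in all) on the coding strand, 5 of 16 TOP genes outside the ribosome (31.2%; the list includes Eif4b and Gas5) and 8 of 24 ribosomal protein genes (33.3%) had one, against 20.6% of 4074 tested genes.

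The elements in the next set are shown because 21 of 25 ER chaperone genes had lower values after rapamycin, none of them past the test, and several of their promoters share this element. It is the composite ER stress element, CCAAT and CCACG separated by 9 bases, which the transcription factors NF-Y and ATF6 bind. Capitals mark the CCAAT and CCACG parts, or ATTGG and CGTGG where the element lies on the opposite strand, and each line is written 5′ to 3′ on the gene's own strand (GRCm38.p6).
Creld2 (chr15:88819505-88819553, plus strand): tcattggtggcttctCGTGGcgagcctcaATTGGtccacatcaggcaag
Hsp90b1 (chr10:86705623-86705671, minus strand): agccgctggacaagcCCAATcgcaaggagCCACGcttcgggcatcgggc
Hspa5 (chr2:34772010-34772058, plus strand): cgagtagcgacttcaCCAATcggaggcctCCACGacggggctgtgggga
Dnajc3 (chr14:118937812-118937860, plus strand): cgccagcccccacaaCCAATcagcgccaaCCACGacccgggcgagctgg
Pdia6 (chr12:17266476-17266524, plus strand): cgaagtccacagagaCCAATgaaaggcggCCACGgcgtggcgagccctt
Ero1b (chr13:12565667-12565715, plus strand): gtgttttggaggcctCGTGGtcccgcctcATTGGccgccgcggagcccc
Canx (chr11:50325785-50325833, minus strand): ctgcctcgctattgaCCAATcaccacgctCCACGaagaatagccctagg
Hsp90b1 holds a further copy on the opposite strand. In windows from 250 bases before to 50 bases after the start, searched on both strands, the element was found in 7 of 22 ER chaperone genes (31.8%). It was found in 8 of 4074 tested genes (0.2%) and 37 of 27025 genes (0.1%). The eighth tested gene was Pan2. The CCACG part alone stood in 19 of the 22 (86.4%), against 51.8% of tested genes. No promoter among 21 ER entry, 25 ER to Golgi traffic and 33 proteasome genes held the composite element. This element was chosen after the values had been seen, and a match is a description of the letters only.

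Eif4b, which encodes a translation initiation factor that stimulates the RNA helicase eIF4A, was the only probe set of 6568 tested that passed the threshold (0.0152% of those tested), and it rose. Its intensities were 283, 254 and 317 after rapamycin and 136, 133 and 106 after vehicle. Each rapamycin array stood above every vehicle array by a wide margin. The means were 285 ± 31.5 after rapamycin and 125 ± 16.5 after vehicle (SD, n = 3 each). The log2 change was 1.19 ± 0.20 (SE), a 2.28-fold difference with a 95% interval of 0.78 to 1.60 on the log2 scale (limma adjusted p = 0.0233 over all probe sets). Without rapamycin replicate 3 the log2 change was 1.11 and the limma adjusted p was 0.17. Leaving out rapamycin replicate 1 or any one vehicle array also took it over 0.05, within the range of 0.0521 to 0.17. A second, dim probe set of Eif4b read 34, 38 and 38 after rapamycin and 18, 6 and 18 after vehicle. It ran the same way, with a log2 change of 1.53 and a limma adjusted p of 0.307. The authors' deposited table gives a ratio of 2.28 for the brighter probe set. The gene lies at chr15:102073773-102097173 on the plus strand.

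On the brighter probe set, the level of Eif4b separated the groups later in refeeding. Before food, at 0 h, its mean was 203 ± 12.0 after rapamycin and 202 ± 33.3 after vehicle, a log2 difference of 0.01. At 3 h the arrays read 254, 307 and 275 after rapamycin and 179, 219 and 201 after vehicle (log2 0.48, limma adjusted p = 0.575). At 12 h they read 250, 223 and 238 after rapamycin and 92, 150 and 134 after vehicle (log2 0.95, limma adjusted p = 0.0312), where 0.32% of probe sets passed. The groups were apart at 3, 6 and 12 h, and the low values at 6 h and 12 h were those of vehicle livers. The test of the 6 h effect against the 0 h effect gave a difference of 1.18 ± 0.28 (SE) and missed the threshold (limma adjusted p = 0.108). All 0 h rapamycin arrays lie in 1 of the 2 array sets described below and all 0 h vehicle arrays in the other. Drug and set thus cannot be told apart at 0 h except through a set term of the fit. That term rests on few arrays. Only the 3 h and 6 h rapamycin groups hold both sets, and in each only replicate 3 lies apart from the others. With that term the difference of the brighter probe set was 1.26 (limma adjusted p = 0.279).

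**Figure D1:**
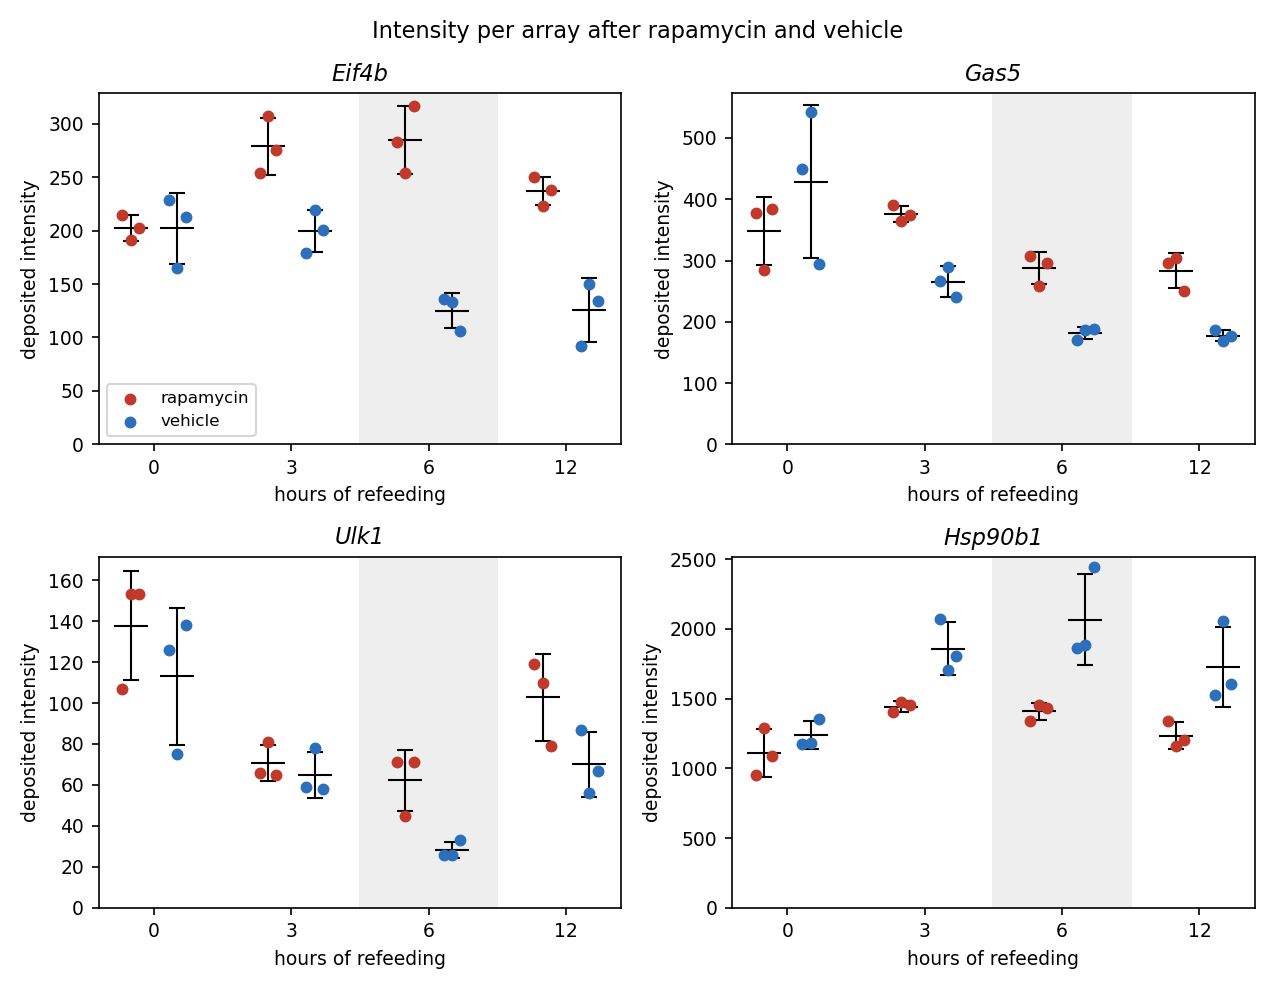
Deposited intensity per array (vertical axis, arbitrary units) against hours of refeeding (horizontal axis) for the genes named in the panel titles, with points for single arrays and bars for the mean and SD of each group of 3, rapamycin left of vehicle, and 6 h shaded. For Eif4b the rapamycin arrays at 6 h sit between 254 and 317 and the vehicle arrays between 106 and 136.

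Gas5, a noncoding RNA that hosts small nucleolar RNAs, followed the same order. It read 308, 259 and 296 after rapamycin and 170, 187 and 188 after vehicle. No array of one group reached the other group. The log2 change of 0.66 ± 0.16 (SE; interval 0.33 to 0.99) missed the threshold (limma adjusted p = 0.26), and at 12 h it was 0.67 (limma adjusted p = 0.0568). Of 21 TOP genes outside the ribosome, a list that includes Eif4b and Gas5, 13 were higher and 8 lower. Their median log2 change was 0.08 (0.04 without rapamycin replicate 3), against 0.04 over all 5001 genes. All 3 rapamycin arrays lay above all 3 vehicle arrays in 4 of the 21 and below them in 2. The same held for 6.16% of all genes above and 4.44% below. Npm1, a nucleolar chaperone, read 247, 184 and 234 after rapamycin and 148, 151 and 163 after vehicle (log2 0.52, limma adjusted p = 0.786), so its groups did not overlap. Eef1d, a subunit of the elongation factor that reloads eEF1A, read 203, 209 and 284 after rapamycin and 175, 181 and 213 after vehicle, with overlapping groups. Of the ribosomal proteins 10 of 28 were higher and 18 lower, with a median of -0.03 and single genes between -0.88 and 1.30. All rapamycin arrays lay below all vehicle arrays in 5 of the 28 and above in 1 (4.44% and 6.16% over all genes). Eif4a2, a helicase that is a partner of eIF4B, read 673, 697 and 696 after rapamycin and 508, 519 and 523 after vehicle. These 6 values formed 2 tight groups apart from each other, but the log2 change of 0.41 missed the threshold (limma adjusted p = 0.484).

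Among all 6568 probe sets, 249 were higher (3.79%) and 143 lower (2.18%) at an unadjusted p under 0.05. All 3 rapamycin arrays lay above all 3 vehicle arrays for 6.3% of probe sets and below them for 4.34%. The median log2 change was 0.04 and the median SE 0.28. Pearson's r across probe sets was 0.942 to 0.969 between rapamycin arrays, 0.946 to 0.966 between vehicle arrays, and 0.939 to 0.97 between arrays of different groups, so pairs within and between groups overlapped. A log2 change beyond 1 in either direction stood at 166 probe sets, but at only 8 with values floored at 30, since most of the 166 are dim. Rapamycin replicate 3 stands apart: 24.9% of its values lay at or below 0, against 35.2% and 36.3% on the other rapamycin arrays and 35% to 37.1% on the vehicle arrays. The arrays of the series fall into 2 sets by this share, and the labels do not say what divides them. Values without rapamycin replicate 3 are therefore given beside many of the gene lists.

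Of the autophagy genes, 17 of 19 were higher and 2 lower after rapamycin, with a median log2 change of 0.36 against 0.04 over all genes. None passed the test. In 6 of the 19 every rapamycin array lay above every vehicle array (6.16% over all genes), and in none below (4.44%). Without rapamycin replicate 3 the median was 0.23, with 15 higher and 3 lower. Ulk1 encodes the kinase that starts autophagosome formation and that mTORC1 inhibits by phosphorylation. It read 71, 45 and 71 after rapamycin and 26, 26 and 33 after vehicle. The groups did not overlap, and the vehicle arrays lay near the authors' floor of 30. The log2 change was 1.11 (interval 0.60 to 1.64, limma adjusted p = 0.168). Its second probe set read 14, 19 and 20 after rapamycin and 3, 15 and -7 after vehicle, with overlap. On the brighter probe set, mean Ulk1 was 138 after rapamycin and 113 after vehicle at 0 h, and 70.7 after rapamycin and 65 after vehicle at 3 h. It was 62.3 after rapamycin and 28.3 after vehicle at 6 h, and 103 after rapamycin and 70 after vehicle at 12 h. Both groups stood lower at 3 h and 6 h than at 0 h on this probe set. Of these 4 times its means differed most at 6 h on the log2 scale. The dim second probe set did not have its largest change at 6 h. Its log2 change was 1.20 at 0 h, -0.17 at 3 h, 1.05 at 6 h and 1.26 at 12 h. Map1lc3b, which coats autophagosomes, stood at a log2 change of 0.37, and Gabarapl1 and Gabarapl2 of the same family at 0.22 and 0.23. At 12 h the median of the list was 0.08.

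The insulin and mTORC1 pathway genes showed no common direction: 9 of 19 were higher, 8 lower, and the median was 0.00 (5 higher, 12 lower and -0.05 without rapamycin replicate 3). Mtor itself stood at 0.18 and Fkbp1a, which encodes FKBP12, at 0.15. Eif4ebp2, a repressor of cap-dependent translation, read 715, 684 and 683 after rapamycin and 578, 581 and 523 after vehicle. Its groups were apart (log2 0.31), but another of its 3 probe sets had the opposite sign. None of these genes passed the test.

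The ER chaperones and folding enzymes were lower after rapamycin in 21 of 25 genes and higher in 4, with a median log2 change of -0.37 against 0.04 over all genes. All 3 rapamycin arrays lay below all 3 vehicle arrays in 9 of 25 (4.44% over all genes) and above them in 1. No member passed the test across all probe sets. Without rapamycin replicate 3 the median was -0.45 and 23 of 25 were lower. The medians of the same genes were -0.49 at 3 h and -0.44 at 12 h, from arrays the 6 h comparison does not use. With values floored at 30 the median at 6 h was -0.16.

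Creld2, a secreted ER factor induced by misfolded protein, read 76, 92 and 134 after rapamycin and 204, 160 and 320 after vehicle. The highest rapamycin array lay under the lowest vehicle array. Its log2 change was -1.16 ± 0.31 (SE), and the limma adjusted p of 0.324 missed the threshold. Manf, a neurotrophic factor retained in the ER with BiP, read 192, 239 and 309 after rapamycin and 448, 433 and 507 after vehicle. Its groups were also apart (log2 -0.93, limma adjusted p = 0.423), and at 12 h its change was -1.29 (limma adjusted p = 0.0502). Hspa5, which encodes BiP, the main ER chaperone, read 806, 913 and 1216 after rapamycin and 1422, 1452 and 1535 after vehicle. Hsp90b1, the ER member of the HSP90 family, read 1341, 1453 and 1434 after rapamycin and 1866, 1886 and 2440 after vehicle. Neither chaperone overlapped between groups, with Hspa5 at -0.61 (limma adjusted p = 0.423) and Hsp90b1 at -0.54 (limma adjusted p = 0.337). The co-chaperone Dnajb11 read 56, 52 and 69 after rapamycin and 85, 90 and 112 after vehicle, and Dnajc3, an inhibitor of the kinase PERK, read 137, 122 and 191 after rapamycin and 196, 196 and 219 after vehicle. In Dnajc3, as in most of these genes, the rapamycin array nearest the vehicle range was replicate 3.

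Disulfide isomerases ran the same way with more spread. Pdia6 read 152, 131 and 228 after rapamycin and 275, 257 and 281 after vehicle, and Pdia4 read 143, 113 and 185 after rapamycin and 201, 214 and 249 after vehicle. In both, the groups stayed apart. Pdia3 read 171, 163 and 318 after rapamycin and 303, 326 and 341 after vehicle, so its replicate 3 lay inside the vehicle range. Xbp1, a transcription factor of the unfolded protein response, read 292, 303 and 383 after rapamycin and 283, 300 and 346 after vehicle, with full overlap (log2 0.07). Canx, the lectin chaperone calnexin, stood at -0.02 although its promoter holds the element shown above. Pan2, the tested gene outside the list with the element, stood at 0.13.

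**Figure D2:**
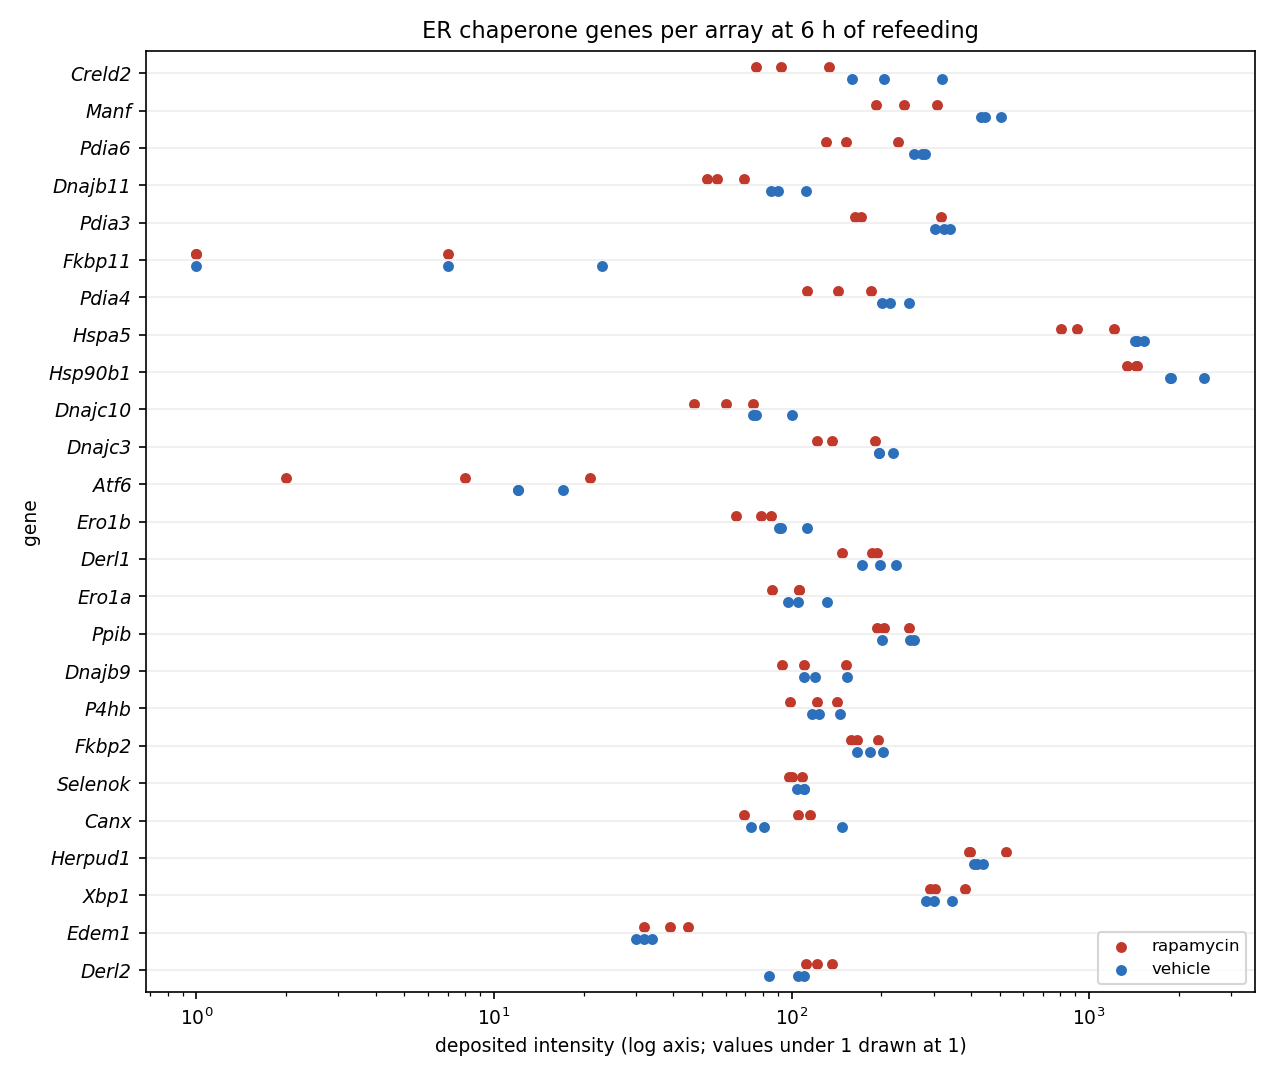
Deposited intensity (horizontal log axis) of each measured ER chaperone gene (rows) on single arrays at 6 h of refeeding, with rapamycin and vehicle arrays in the colours of the legend. Rapamycin arrays lie left of all vehicle arrays for 9 of the 25 genes, among them Creld2, Manf, Hspa5 and Hsp90b1.

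Entry into the ER and glycosylation gave 22 of 29 genes on the lower side and 7 on the higher, with a median of -0.22 (-0.25 without rapamycin replicate 3). In 10 of 29 all rapamycin arrays lay below all vehicle arrays (4.44% over all genes), and in 1 above (6.16%). Ssr3, a subunit of the translocon-associated complex, read 446, 423 and 506 after rapamycin and 599, 721 and 622 after vehicle, with no overlap (log2 -0.50). Ostc, a subunit of the oligosaccharyltransferase, read 143, 116 and 157 after rapamycin and 203, 229 and 212 after vehicle (log2 -0.64, limma adjusted p = 0.57). Ddost, another subunit, was dim: 20, 16 and 16 after rapamycin and 35, 42 and 36 after vehicle, all rapamycin arrays under 30. Its log2 change was -1.12 (limma adjusted p = 0.423; 0.0043 with the floor doubled). Sec61a1, the channel of the translocon, read 348, 349 and 336 after rapamycin and 385, 483 and 482 after vehicle on its brighter probe set (log2 -0.38). Its other probe set read 188, 169 and 185 after rapamycin and 218, 306 and 255 after vehicle (log2 -0.51), and at 12 h that probe set passed (log2 -0.72, limma adjusted p = 0.0471). Of 28 genes of ER to Golgi traffic 23 lay on the lower side and 5 on the higher, with a median of -0.14 (-0.18 without rapamycin replicate 3). All rapamycin arrays lay below in 9 of these 28 and above in 1, beside 4.44% and 6.16% of all genes. Copg1, a coat protein of retrograde vesicles, read 100, 89 and 95 after rapamycin and 133, 120 and 141 after vehicle (log2 -0.47).

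Cytosolic heat shock proteins and chaperonins were lower in 23 of 27 and higher in 4, with a median of -0.19 (-0.24 without rapamycin replicate 3). All rapamycin arrays lay below all vehicle arrays in 9 of 27 (4.44% over all genes) and above in none (6.16%). Chordc1, a co-chaperone of HSP90, read 161, 180 and 212 after rapamycin and 283, 259 and 404 after vehicle (log2 -0.76, limma adjusted p = 0.382). Hsp90aa1, the inducible cytosolic HSP90, read 427, 592 and 715 after rapamycin and 858, 797 and 1113 after vehicle (log2 -0.69). Hspa8, the constitutive HSP70, read 742, 826 and 813 after rapamycin and 893, 1120 and 1180 after vehicle (log2 -0.41). The groups of these 3 genes did not overlap, and none passed the test.

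Of 39 proteasome genes 30 stood lower and 9 higher, with a median of -0.14. On the low side 13 of 39 had no overlap between groups (4.44% over all genes), and on the high side none did (6.16%). Without rapamycin replicate 3 the median was -0.18. Psmd11, a lid subunit, read 364, 381 and 340 after rapamycin and 460, 462 and 534 after vehicle (log2 -0.42), and its change at 12 h was 0.02. The list's median was 0.05 at 3 h, with 25 of 39 higher, and -0.18 at 12 h, with 33 of 39 lower. Unlike those of the ER chaperones, the proteasome genes thus stood on opposite sides of 0 at 3 h and 6 h, a difference that was not tested for the list.

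**Figure D3:**
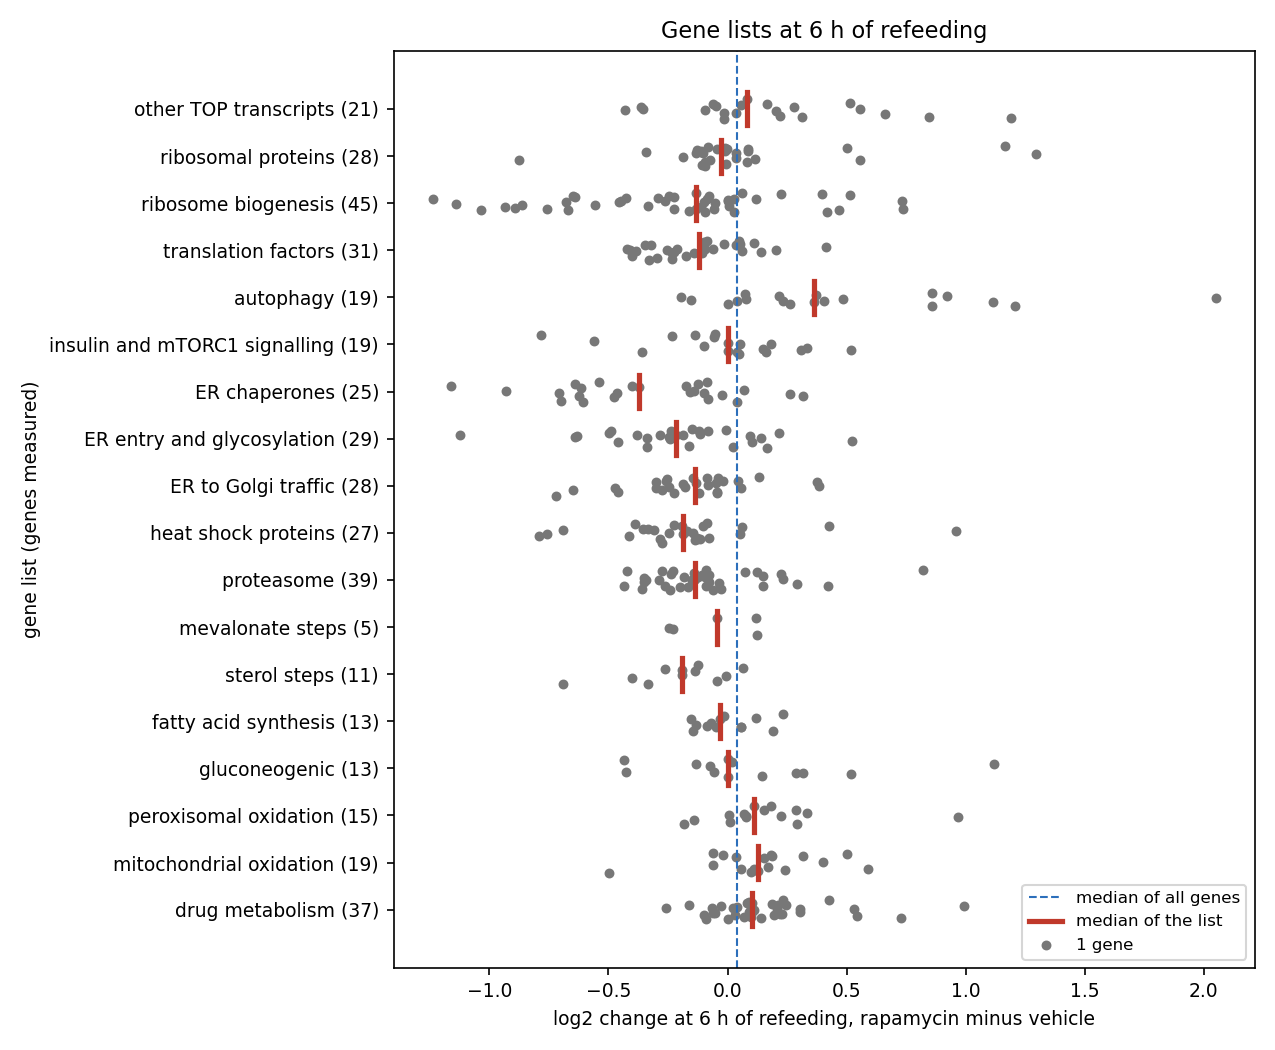
Log2 change at 6 h, rapamycin minus vehicle (horizontal axis), of every measured gene (points) in each list (rows, with the number of genes measured) and the list median. The list medians run from -0.37 for ER chaperones to 0.36 for autophagy, and Eif4b, the gene that passed the test, is the rightmost point of the other TOP transcripts at 1.19.

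Of 45 ribosome biogenesis genes 31 lay lower and 12 higher, with a median of -0.13. It was -0.27 without rapamycin replicate 3, with 34 of 45 lower, and -0.05 with values floored at 30. Srm, spermidine synthase, was counted in this list and also among polyamine genes. It read 63, 56 and 67 after rapamycin and 128, 96 and 116 after vehicle, clear of each other (log2 -0.86, limma adjusted p = 0.423). Polr1e, Nop56 and Gnl3 of the list were dim, at -1.14, -1.04 and -1.24. With values floored at 30 these 3 stood at -0.10, -0.05 and -0.06. Translation factors and tRNA synthetases other than TOP genes stood lower in 22 of 31 and higher in 9, with a median of -0.12 (-0.24 without rapamycin replicate 3, with 25 of 31 lower). All rapamycin arrays lay above all vehicle arrays in 2 of the 31 and below in 2, beside 6.16% and 4.44% of all genes. Targets of ATF4, a factor that amino acid lack and mTORC1 both regulate, were lower in 8 of 12 and higher in 4 (median -0.10). All rapamycin arrays lay below all vehicle arrays in 2 of the 12 and above in none, beside 4.44% and 6.16% of all genes. Asns, the highest of the list, read 21, 68 and 73 after rapamycin and 73, 7 and -21 after vehicle. Its groups overlapped (log2 1.67, limma adjusted p = 0.882). Atf5 read 304, 290 and 453 after rapamycin and 639, 596 and 500 after vehicle (log2 -0.75, limma adjusted p = 0.629), with replicate 3 of each group nearest to the other group.

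Next come the 15 genes of smallest p on each side among probe sets with 1 symbol and every array of the higher group above 30, leaving out those already named. All of them missed the threshold. On the higher side Otud5, a deubiquitinase, read 48, 41 and 78 after rapamycin and 18, 26 and 15 after vehicle (log2 1.48, limma adjusted p = 0.077). Slc22a5, the carnitine transporter, read 39, 37 and 51 after rapamycin and 20, 18 and 19 after vehicle (log2 1.14, limma adjusted p = 0.111), with every vehicle array under 30. Atxn2, an RNA-binding protein, read 91, 68 and 119 after rapamycin and 42, 56 and 51 after vehicle (log2 0.87, limma adjusted p = 0.111). All 3 had separate groups, and replicate 3 was the highest rapamycin array in each. Cox7a2l, an assembly factor of respiratory supercomplexes, read 229, 235 and 246 after rapamycin and 183, 151 and 174 after vehicle (log2 0.49, limma adjusted p = 0.324). It passed at 12 h, where its log2 change was 0.81 (limma adjusted p = 0.00673). Rmnd5a, a subunit of the CTLH ubiquitin ligase, read 284, 259 and 271 after rapamycin and 164, 224 and 181 after vehicle (log2 0.53), and passed at 12 h at 0.75 (limma adjusted p = 0.0307). The linker histone H1f2 read 85, 121 and 221 after rapamycin and 11, 66 and 74 after vehicle (log2 1.80), where 1 low vehicle array and 1 high rapamycin array carry much of the distance. Epb41l4aos, Rab11b, Slc4a4, Trpm1, Fbxo8 and Ubxn8 complete this side, with Epb41l4aos at 1.38, Slc4a4 at 0.98, Trpm1 at 0.96 and Rab11b at 0.74.

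On the lower side Lrrc59, a ribosome-binding protein of the ER membrane, read 248, 221 and 238 after rapamycin and 307, 343 and 402 after vehicle (log2 -0.57, limma adjusted p = 0.337). It passed at 12 h at -0.83 (limma adjusted p = 0.0179). Ppa1, the cytosolic pyrophosphatase, read 472, 615 and 605 after rapamycin and 738, 706 and 876 after vehicle (log2 -0.46, limma adjusted p = 0.337), and passed at 12 h at -0.61 (limma adjusted p = 0.0307). Both genes therefore kept their side at 6 h and 12 h. Isg15, an interferon-induced ubiquitin-like protein, read 11, 25 and 23 after rapamycin and 39, 40 and 57 after vehicle. Every rapamycin array lay under 30 and every vehicle array above it. Its log2 change was -1.27 (limma adjusted p = 0.353), and with values floored at 30 it was -0.57 (limma adjusted p = 0.00158). Slc35b1, an ER nucleotide carrier, read 394, 410 and 446 after rapamycin and 492, 631 and 638 after vehicle (log2 -0.49). Tmx2, a thioredoxin-related membrane protein, read 38, 48 and 47 after rapamycin and 87, 79 and 93 after vehicle (log2 -0.97). Ppp1r14b, an inhibitor of protein phosphatase 1, read 93, 98 and 105 after rapamycin and 143, 145 and 164 after vehicle.

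The genes of cholesterol synthesis, which the sterol-sensing factor SREBP-2 drives, did not separate the groups at 6 h. Of 5 mevalonate genes 2 were higher and 3 lower (median -0.04), but all 5 were higher without rapamycin replicate 3 (median 0.14). Of 11 later sterol genes 1 was higher and 10 lower (median -0.19), against 4 higher and 7 lower without that array (median -0.02). Idi1, an isoprenoid isomerase, read 1351, 1131 and 595 after rapamycin and 1502, 1660 and 607 after vehicle (log2 -0.25, interval -1.33 to 0.84). Fdps, which makes farnesyl units, read 1462, 1247 and 672 after rapamycin and 1673, 1644 and 715 after vehicle (log2 -0.23, interval -1.35 to 0.90). In both, replicate 3 of each group was the low array, although only that of rapamycin belongs to the other array set. Lss, which closes the sterol rings, read 300, 257 and 143 after rapamycin and 499, 399 and 232 after vehicle (log2 -0.69, limma adjusted p = 0.932). Without rapamycin replicate 3 the changes of Idi1 and Fdps were 0.11 and 0.11. That omission removes the low rapamycin array and keeps the low vehicle array, which moves their changes upward. In Lss too, replicate 3 was the low array of both groups. The counts and medians without that array carry the same limit for such genes. At 3 h, where 0.305% of probe sets passed, the list medians were -2.51 for mevalonate and -1.20 for sterol genes. In the test of 6 h against 3 h, Msmo1 stood at 3.56 (limma adjusted p = 0.0543) and a second probe set of Fdps missed as well (limma adjusted p = 0.0514).

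**Figure D4:**
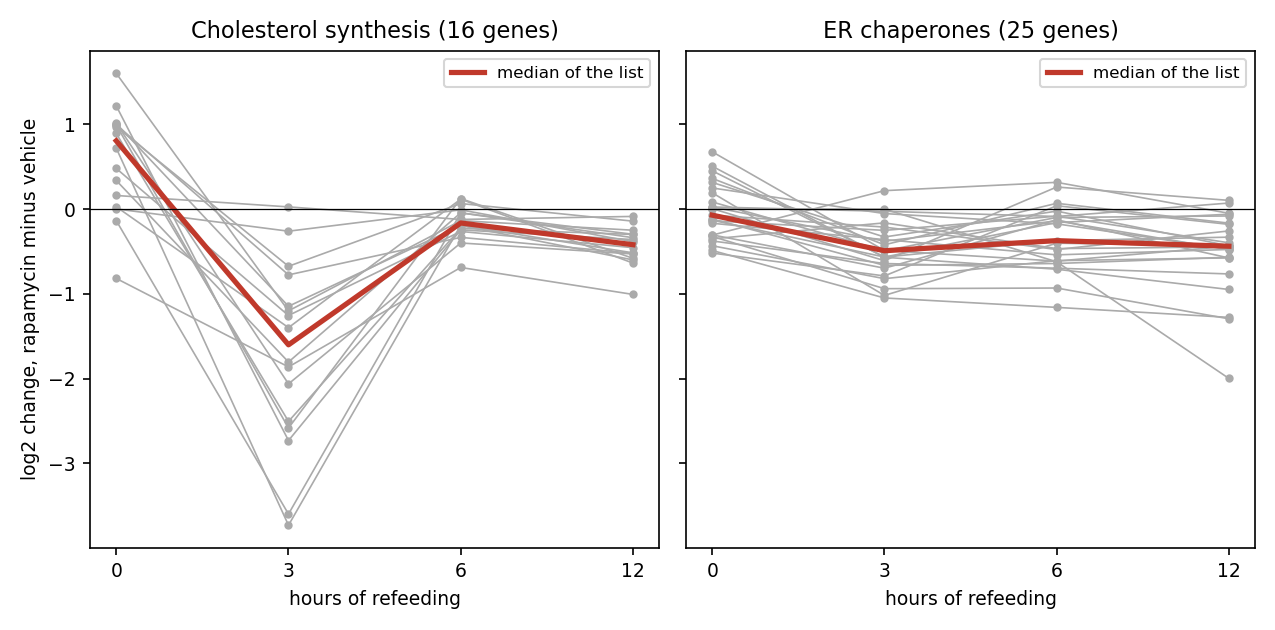
Log2 change, rapamycin minus vehicle (vertical axis), of each gene (thin lines) and the list median (thick line) at 0, 3, 6 and 12 h of refeeding (horizontal axis), for cholesterol synthesis (left) and ER chaperones (right). At 6 h the 16 cholesterol genes lie between -0.69 (Lss) and 0.12, and the ER chaperone median lies at -0.49, -0.37 and -0.44 at 3, 6 and 12 h.

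Fatty acid synthesis genes also stood near 0, with all 13 within 0.5 on the log2 scale. Of them 5 were higher and 8 lower (median -0.03), but without rapamycin replicate 3 the list turned, with 11 higher and 2 lower (median 0.09). Fasn, the fatty acid synthase, read 718, 672 and 362 after rapamycin and 688, 617 and 441 after vehicle (log2 -0.03, interval -1.22 to 1.15). Srebf1, the factor that drives the pathway, read 277, 302 and 203 after rapamycin and 237, 234 and 212 after vehicle. Scd1, the stearoyl-CoA desaturase, read 566, 948 and 1404 after rapamycin and 812, 1294 and 965 after vehicle. The groups of all 3 overlapped, and the wide intervals leave a change of up to 1 log2 unit in either direction undetectable for Fasn. In Fasn and Srebf1 replicate 3 was the low array of both groups, and the omission above removes only the rapamycin one. In Scd1 rapamycin replicate 3 was instead the highest of its group.

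Gluconeogenic and insulin-repressed genes had no common side, with 6 of 13 higher, 5 lower and a median of 0.00. Pck1, the gluconeogenic carboxykinase, read 1074, 491 and 1122 after rapamycin and 1211, 642 and 733 after vehicle (log2 0.02). G6pc, which releases free glucose, read 285, 167 and 285 after rapamycin and 313, 360 and 292 after vehicle, each rapamycin array below every vehicle array (log2 -0.43). Igfbp1, an insulin-repressed carrier of growth factors, read 57, 25 and 82 after rapamycin and 10, 67 and 17 after vehicle (log2 1.12, limma adjusted p = 0.949), and its change at 3 h was 2.87. Ppargc1a and Irs2 lay at the floor on all 6 arrays. Glycolysis and pentose phosphate genes were lower in 13 of 17 (median -0.13).

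Fatty acid oxidation genes leaned to the higher side: 15 of 19 mitochondrial (median 0.13) and 13 of 15 peroxisomal genes (median 0.11). All rapamycin arrays lay above all vehicle arrays in 3 of the 19 and 4 of the 15, and below in none, beside 6.16% and 4.44% of all genes. Ppara, the receptor that drives these genes in fasting, read 421, 332 and 471 after rapamycin and 297, 285 and 275 after vehicle (log2 0.50, limma adjusted p = 0.517). Cpt1a, the gate of fatty acid entry into mitochondria, read 1342, 969 and 1071 after rapamycin and 913, 933 and 708 after vehicle (log2 0.40). Slc27a2, a fatty acid transporter, read 1775, 1635 and 1602 after rapamycin and 1433, 1402 and 1266 after vehicle (log2 0.29). These 3 had separate groups. Drug-metabolising enzymes were higher in 28 of 37 and lower in 8 (median 0.10), with Cyp2d10 at 2389, 2532 and 2459 after rapamycin and 2237, 2126 and 2117 after vehicle (log2 0.19). Abcc2, which exports bile acid conjugates, read 311, 317 and 314 after rapamycin and 255, 231 and 216 after vehicle (log2 0.43). Slc2a2, the hepatic glucose transporter, read 920, 700 and 827 after rapamycin and 592, 604 and 522 after vehicle (log2 0.50). No array of either gene crossed into the other group, and none of these genes passed the test.

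To ask where the 6 h effect falls among the genes that feeding moves, probe sets were classed by vehicle livers at 12 h against 0 h, arrays that the 6 h comparison does not use. Refeeding raised 1705 probe sets (26%) and lowered 611 (9.3%); with quantile normalization the split was 1254 to 968 and with 1 trimmed mean 1111 to 1253. Of those raised by refeeding, rapamycin lay wholly below vehicle at 6 h in 9.15% and wholly above in 6.16%. Of those lowered by refeeding, it lay wholly above in 10.5% and wholly below in 3.44%. Of the other 4252, it lay above in 5.76% and below in 2.54%. The median log2 change was 0.04 in each of these 3 classes. All 0 h vehicle arrays belong to the first array set and all 12 h ones to the second. When the array set was a term of the fit, 632 were raised and 391 lowered, and the shares were 14.4% below and 6.8% above in the raised class, and 2.56% below and 13.6% above in the lowered class. The medians were then -0.01 in the raised class, 0.13 in the lowered class and 0.04 in the rest. Only the 3 h and 6 h rapamycin groups hold arrays of both sets, and the set term is estimated from them. The classes made with the term are thus not free of the 6 h arrays. With rapamycin replicate 3 left out of the 6 h effect, their medians were 0 (raised), 0.006 (lowered) and 0 (rest). In vehicle livers at 12 h against 0 h, Gas5 fell by 1.23 on the log2 scale (limma adjusted p = 2.18e-06), Ulk1 fell by 0.67 (limma adjusted p = 0.0421) and Creld2 rose by 1.03 (limma adjusted p = 0.0116). On that scale Hspa5 rose by 0.61 (limma adjusted p = 0.015) and Hsp90b1 by 0.47 (limma adjusted p = 0.0146).

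The 6 h effect was tested against the effect at each other stage, with no arrays shared. Against 0 h, 1 probe set differed (0.0152%): Pak4, a kinase of the cytoskeleton, which averaged 91.3 ± 9.07 after rapamycin and 90.7 ± 22.9 after vehicle at 6 h (SD, n = 3 each). Its means at 0 h were 81 after rapamycin and -12.7 after vehicle, so the size of that difference depends on the floor, and Pak4 did not pass with a floor of 30. Against 3 h, 4 probe sets differed (0.0609%), all with the more positive change at 6 h. Of these Mid1ip1, an activator of acetyl-CoA carboxylase, read 69, 88 and 53 after rapamycin and 65, 29 and 48 after vehicle at 6 h, again with overlap, and its means at 3 h were -13.3 after rapamycin and 23.3 after vehicle. Its brighter probe set was not among those called. Against 12 h, 1 probe set differed (0.0152%), that of Foxk2, which lay at or below 0 on every 6 h array. Against the nonfasted livers, 47 differed (0.716%), but 5 did so once the array set entered the fit. The nonfasted rapamycin and vehicle arrays lie in different sets, and so do those at 0 h. Across all 6568 probe sets, Pearson's r of the 6 h effect was 0.20 with the effect at 0 h, 0.03 with that at 3 h, 0.23 with that at 12 h and -0.17 with that in nonfasted livers. Without rapamycin replicate 3 these values were -0.05 for 0 h, 0.17 for 3 h, 0.23 for 12 h and 0.08 for nonfasted livers. So 2 of the 4, those with 0 h and nonfasted livers, turned sign on leaving out 1 array. At both stages rapamycin and vehicle arrays lie in different sets. The array left out is the only 6 h array of the second set. With the array set as a term r was 0.22 for 0 h and -0.24 for nonfasted livers. Those values cannot be read as a likeness between stages. The same estimate of the set difference, drawn from the 3 h and 6 h rapamycin groups, enters both effects that are compared. It enters with opposite signs at 0 h and in nonfasted livers. The part of the set was not tested. Genes are not independent replicates, and these values are a description.

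Markers of cell types were set beside these values. The summed intensity of 11 hepatocyte markers, Alb, Ttr and Apoa1 among them, was 29840 to 33082 on rapamycin arrays and 31300 to 34742 on vehicle arrays, so the tissue matched its label. The 12 Kupffer cell markers summed to 1290 to 1711 after rapamycin and 1319 to 1546 after vehicle, with Adgre1 at or below 30. The 9 endothelial markers summed to 578 to 722 after rapamycin and 549 to 572 after vehicle, without overlap, while Lyve1, Tek and Tie1 were at or below 30. Only the sum was apart: in none of the 9 did every rapamycin array lie above every vehicle array. The part of these cells in the gene values was not tested. Stellate cell markers (8 genes) summed to 1596 to 1922 after rapamycin and 1461 to 1713 after vehicle, and red cell markers (5 genes) to 1485 to 1826 after rapamycin and 1119 to 1723 after vehicle. In bulk liver, fewer cells of a type and less RNA per cell cannot be told apart.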

How the data were processed

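The deposited intensity values are linear average differences, scaled by the authors with 1 factor per array, per the file headers, and negative values are kept. The deposited detection calls count 2989 to 5714 present probe sets per array. The deposited table also holds the authors' ratio (fold) for 6 h, which is described only; 66 of its columns of per-array values were not used. Values under 6.31 (0.1 of 63.1, the mean over arrays of the 2% trimmed mean) were raised to it before log2. Probe sets needed a present call on 3 of the 33 arrays, which left 6568. One limma fit (version 3.58.1, R 4.3.3) with 11 group means and all 33 arrays gave each contrast, tested two-sided with Benjamini-Hochberg adjustment over all probe sets and a threshold of 0.05 (22 residual and 1.89 prior degrees of freedom). The procedure was tested on simulated data. Of the probe sets, 10855 carry 1 gene symbol in the platform annotation, 396 several and 1237 none, and symbols may be old. Where the text counts genes, each is given by its probe set of highest mean. Promoters and positions are from RefSeq, GRCm38.p6. Genes were named as those that passed, then the 15 of smallest p per direction, up to 4 members per list, a fixed list, and the 6 of smallest p per stage difference, and some are left out for length. The members and lists were chosen with earlier results of these data known. The alternatives were another scaling or floor, other detection filters, trended robust eBayes, a replicate block, the 6 arrays alone, the array set as a term, and leaving out each array.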

Additional observations from a re-analysis of the deposited data

Results flagged for a closer look

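These differences between the rapamycin effect at 6 h and that at another stage passed the limma test, given on the log2 scale as 6 h minus the other stage. Against 0 h, Pak4 differed by -3.56 ± 0.53 (SE), with a limma adjusted p of 0.00437 (0.00536 with the array set as a term). Its 0 h vehicle mean of -12.7 lies under the floor, so this size depends on the floor and Pak4 did not pass with a floor of 30. Against 3 h, Mid1ip1 differed by 2.40 (limma adjusted p = 0.00446, and 0.0117 with the term). Ergic2 and Nabp1 differed from 3 h by 1.61 and 1.64 (limma adjusted p = 0.0199 each), no longer past the threshold with the term at 0.26 and 0.241, and both read 15 or less on every 6 h array. Against 12 h, Foxk2 differed by 1.33 (limma adjusted p = 1.2e-05, and 4.04e-05 with the term), with all 6 h arrays at the floor. Against the nonfasted livers the 6 of smallest p were Ubxn8 (1.88), Mme (1.71), Galk2 (2.63), Fgfr2 (3.05), Cdk5 (2.76) and Serpinh1 (2.49). Their limma adjusted p was 0.0116 for the first 5 and 0.00051 for Serpinh1. With the array set as a term only Serpinh1 passed among these 6 (limma adjusted p = 0.0332, against 0.267 to 0.515), and its 6 h arrays read 11 or less. The nonfasted groups lie in different array sets, and so do the 0 h groups. At these stages the drug and the set cannot be told apart except through the array set term. That term rests on few arrays, since only the 3 h and 6 h rapamycin groups hold both sets.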

How the results depend on the processing

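The call of Eif4b ended with a replicate block (limma adjusted p = 0.0742), with the 6 arrays alone (0.304), and without rapamycin replicate 1 or 3 or any one vehicle array (0.0521 to 0.17). The labels do not say whether same-numbered arrays at 6 h were paired. Deviations of same-numbered arrays correlated weakly, at 0.0207, 0.0662 and 0.107, which does not settle it. The main fit used no pairing. The 1 call at 6 h became 3 with quantile normalization, 2 with 1 trimmed mean, 3 with the floor halved or doubled, 6 with a floor of 30, 0 with the replicate block or with the 6 arrays alone, 4 with the array set as a term, 7 with that term and a floor of 30, and 0 without the array of the other set. Leaving out 1 array gave 0 to 7. For those counts of 0, limma had 383, 452 and 355 probe sets at an unadjusted p under 0.05. Among named genes, Otud5 passed with 1 trimmed mean and with the set term (limma adjusted p = 0.0406 and 0.0471), Isg15 with the floor doubled (0.0153), at 30 (0.00158) and at 30 with the term (0.0072), and Ddost with the floor doubled (0.0043). A floor of 30 gives all 3 rapamycin arrays of Isg15 the same value, so its passes there depend on the floor. Without rapamycin replicate 2, Ulk1 (0.0484), Otud5 (0.0307) and Atxn2 (0.021) passed.

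The difference from 0 h (1 call) gave 6 with quantile normalization or 1 trimmed mean, 15 with the floor halved, 0 with a floor of 30, 9 for probe sets present on 11 arrays, 2 with the replicate block, 4 with the array set, 2 with array set and floor of 30, and 42 without rapamycin replicate 3 (range 1 to 42 over single arrays left out). That from 3 h (4 calls) gave 1 with quantile normalization, the floor halved or the replicate block, 14 with a floor of 30, 7 with trended robust eBayes, 2 with the array set, 2 with array set and floor of 30, and 2 to 8 without single arrays. That from 12 h (1 call) gave 0 with the floor halved, 0 with it doubled, 6 with a floor of 30, 0 for present on 11 arrays, 5 with array set and floor of 30, 2 without rapamycin replicate 3, and 1 to 2 over single arrays. That from the nonfasted livers (47 calls) gave 25 for present on 11 arrays, 27 with the replicate block, 5 with the array set, 3 with that and a floor of 30, and 6 without rapamycin replicate 3 (6 to 74 over single arrays). The 20 calls at 3 h became 33 with the floor doubled, 45 with a floor of 30 and 34 with the array set and a floor of 30. The 21 calls at 12 h became 36, 68 and 77 under the same settings, and 10 with the replicate block. The 2316 refeeding calls became 1023 with the array set and 981 with a floor of 30 as well.

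Signs turned only in genes whose interval holds 0, and the cause was not tested. Idi1 stood at 0.058 with the array set and 0.11 without rapamycin replicate 3 (-0.70 to 0.11 over single arrays left out). Fdps stood at 0.11 without rapamycin replicate 3 (-0.63 to 0.11). Fasn stood at 0.19 with the array set at either floor and 0.28 without rapamycin replicate 3 (-0.22 to 0.28). Srebf1 stood at -0.17 with the array set. Pck1 stood at -0.032 with 1 trimmed mean, -0.022 with the array set at either floor and -0.19 without rapamycin replicate 3 (-0.19 to 0.405). Over single arrays left out, Scd1 ran from -0.46 to 0.20, Eif4ebp1 from -0.20 to 0.087 and Cyp7a1 from -0.029 to 0.61. Changes of dim probe sets near the floor depend on it.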

Other observations

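Other gene groups at 6 h gave no member past the test. Glycogen genes were higher in 7 of 8 (median log2 change 0.31, 0.28 without rapamycin replicate 3 and 0.02 with values floored at 30), and nuclear receptors in 17 of 22 (median 0.12, and 0.00 without rapamycin replicate 3). Urea cycle and amino acid genes were lower in 19 of 26 (median -0.08, and -0.13 without rapamycin replicate 3), and bile acid genes higher in 12 of 13 (median 0.12). Plasma protein genes, the main cargo of the ER, stood at a median of 0.02 with 24 of 42 higher, beside the median of -0.37 for ER chaperones. Respiratory chain genes (24 of 59 higher, median -0.02) and lysosome genes (20 of 40 higher, median 0.00) had medians near 0. Splicing genes did too (14 of 31 higher, median -0.02), but single members ran from -0.62 to 1.54, with 3 of 31 wholly above and 5 wholly below vehicle, beside 6.16% and 4.44% of all genes.

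Among single genes, Dbp, a clock output factor, read 165, 102 and 139 after rapamycin and 65, 77 and 64 after vehicle, with no overlap (log2 0.96). Fkbp5, a glucocorticoid target, read 90, 98 and 83 after rapamycin and 63, 44 and 22 after vehicle (log2 1.20), while Tat, another glucocorticoid target, read 1036, 1403 and 1583 after rapamycin and 1849, 1598 and 1930 after vehicle (log2 -0.44). These 2 targets lay on opposite sides, each with separate groups, and neither passed the test.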
